A study of Homo sapiens with 6 samples.

Results

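The insulin-like growth factor (IGF) axis was followed through 10 genes, picked by name from 62700 gene IDs: the receptor genes IGF1R, IGF2R and INSR, the ligand gene IGF2, and the binding-protein genes IGFBP2 to IGFBP7. Lower IGFBP5 in leptin-treated cells was already known when the family was picked, so values of IGFBP5 are a description and carry no test. The other members were taken by family name, with earlier results of these libraries known. RNA was sequenced from OVCAR8, an established line of human ovarian carcinoma cells, labelled wild type. All cells had been kept overnight without serum. Then 3 libraries came from cells given 100 ng/ml of leptin, a hormone of fat tissue, for 24 h, and 3 from cells given PBS. Whether the libraries of a group are separate cultures is not labelled, and the p-values cover no more than their spread, possibly a technical one. In bulk RNA, fewer expressing cells and less RNA per cell cannot be told apart.

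IGF1 and IGF2 signal through the receptor tyrosine kinase IGF1R, and insulin and IGF2 also through INSR. IGF2R, the cation-independent mannose 6-phosphate receptor, has no kinase, carries lysosomal enzymes and takes IGF2 up for breakdown. Secreted IGFBPs hold IGFs outside the cell, blocking or prolonging their action, and proteases that cut them release the ligand. In ovarian carcinoma, IGFBP2 is studied as a tumour-derived secreted protein.

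Totals were 15609425 to 17238432 counts per leptin library and 15993104 to 18577775 per control library. Leptin replicate 1 stood apart: on the first principal component (49.6% of the variance) it lay at -2.15, against 46.3 and 39.6 for the other leptin libraries and -31.0 to -23.6 for the controls. The second component (18.6% of the variance) had leptin replicate 1 at -40.0 and leptin replicates 2 and 3 at 19.65 and -6.13. The controls lay at 5.95 to 12.9 on it. Members with a fitted log2 fold change are therefore also given without leptin replicate 1. All 9 ovarian carcinoma markers had counts, with summed levels of 3526 to 3931 CPM (counts scaled to a common library total) with leptin and 3171 to 3456 CPM in controls, although MUC16 and MSLN averaged under 1 CPM in both groups. Among the 7 tested on this list, 1 fell (KRT19) and 0 rose, where 9.81% of all tested genes passed. KRT19 had 38.7 ± 0.967 CPM with leptin and 102 ± 9.63 CPM in controls (SD, n = 3 each). Its fall was -1.40 on the log2 scale (edgeR adjusted p = 0.000139). EPCAM lay above all controls in all leptin libraries but did not pass (0.47, edgeR adjusted p = 0.196). KRT7 had a positive value with overlapping groups (0.72, edgeR adjusted p = 0.166). The list had a median of 0.118, against 0.0057 over all tested genes. PTPRC, CD3E, MS4A1 and ITGAM, of the 9 immune markers, were at 0 counts in every library, and the list summed to 2.61 to 4.84 CPM with leptin and 1.90 to 2.49 CPM in controls. The 6 endothelial and 5 adipocyte markers each summed to under 5 CPM in every library. The 12 fibroblast markers summed to 374 to 542 CPM with leptin and 506 to 698 CPM in controls, most of it COL1A1, with DPT at 0. Of the 9 tested, 2 fell (POSTN and MFAP5) and 0 rose, where 4.09% of all tested genes fell and 5.71% rose. DCN and LUM were also lower in every leptin library than in every control. LUM did not pass (edgeR adjusted p = 0.215). DCN, counted among the 9, passed the filter on low counts through its controls alone, so its values are given without a test. PDGFRB and THY1 were higher in every leptin library than in every control without passing (edgeR adjusted p = 0.0684 and 0.132). The part of depth, of leptin replicate 1 and of these markers in the results was not tested.

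IGFBP5 was lower with leptin, and its chromosomal neighbour IGFBP2 was higher. Both are on chromosome 2 (hg38), IGFBP2 at 216632828 to 216664436 on the plus strand and IGFBP5 at 216672105 to 216695549 on the minus strand. They point towards each other, with 7.67 kb between their ends. The 250 bases upstream of each gene start are shown because these neighbours differed in opposite directions. They are RefSeq sequences of build GRCh38.p14, 5′ to 3′ on the gene's own strand, from chr2:216632578-216632827 for IGFBP2 and chr2:216695550-216695799 for IGFBP5. Capitals mark matches to the motifs listed after them.
IGFBP2: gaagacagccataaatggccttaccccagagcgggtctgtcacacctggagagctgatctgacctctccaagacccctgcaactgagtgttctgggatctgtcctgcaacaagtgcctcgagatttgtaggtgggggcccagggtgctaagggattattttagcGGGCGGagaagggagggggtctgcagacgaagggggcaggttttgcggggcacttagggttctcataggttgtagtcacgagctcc
IGFBP5: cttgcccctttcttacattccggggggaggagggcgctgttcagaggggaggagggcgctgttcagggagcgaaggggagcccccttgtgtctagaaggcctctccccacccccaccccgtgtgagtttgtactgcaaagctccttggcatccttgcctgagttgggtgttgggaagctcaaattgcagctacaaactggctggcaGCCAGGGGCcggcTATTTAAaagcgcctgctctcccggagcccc

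The IGFBP5 window held the AP-2-type palindrome GCCNNNGGC, at positions -44 to -36 counted back from the start, a motif in 19.8% of 35116 such windows of RefSeq genes. It also held the TATA-like run TATTTAA at -31 to -25, a string added after the sequence had been read and present in 4.17% of windows. The IGFBP2 window held 1 GC box, GGGCGG, at -86 to -81, which 42.6% of windows hold. Neither window held TATAAA (10.7% of windows), the STAT-type palindrome TTCNNNGAA (6.57%), the AP-1 site TGANTCA (6.57%), the E-box CACGTG (6.34%) or the composite core TGATGNAA (3.14%). Motifs were searched on both strands, and a match is no evidence of a bound factor. IGFBP5 had 61.2% GC and 8 CpG in its window, IGFBP2 56.8% and 7, against a median of 58.0% and 11 over all windows. IGFBP2 has other RefSeq starts, and the window of the one 592 bases downstream had 69.2% GC and 22 CpG. The windows of these other IGFBP2 starts were not searched for motifs, so the matches cover the outermost start alone. Of the 10 members, 8 had a RefSeq promoter entry; IGF2 and IGFBP7 had none.

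IGFBP5, which encodes an IGF-binding protein that also binds extracellular matrix, had 2.77, 6.01 and 5.46 CPM in leptin replicates 1, 2 and 3, against 18.98, 28.1 and 20.8 CPM in control replicates 1, 2 and 3. The groups did not overlap, and leptin replicate 1 was the lowest of all 6 libraries. Its mean was 4.75 ± 1.74 CPM with leptin and 22.6 ± 4.84 CPM in controls (SD, n = 3 each), a log2 fold change of -2.26 ± 0.26 (SE). Relative to the control mean, the log2 difference was -3.03 in leptin replicate 1, -1.91 in replicate 2 and -2.05 in replicate 3. So the leptin library nearest to the controls on the first principal component was the farthest from them in IGFBP5. Without leptin replicate 1 the log2 fold change was -1.99 ± 0.19. An antisense gene, DIRC3-AS1, covers 7.53% of the IGFBP5 exon bases and had 2 counts in all libraries together.

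IGFBP2, a binding protein with an integrin-binding RGD motif, had 3.46, 6.35 and 7.90 CPM in leptin replicates 1 to 3, against 1.42, 2.36 and 2.28 CPM in control replicates 1 to 3. Every leptin library lay above every control, and leptin replicate 1 was closest to them. These levels rest on 60, 95 and 133 counts with leptin and 27, 38 and 38 counts in controls. IGFBP2 rose by 1.55 ± 0.34 on the log2 scale (edgeR quasi-likelihood test, adjusted p = 0.0196). Without leptin replicate 1 the value was 1.82 ± 0.27 (edgeR adjusted p = 0.000102). The call was lost in each of the other leave-outs, which gave 1.49 without leptin replicate 2 (edgeR adjusted p = 0.0544), 1.27 without leptin replicate 3 (0.0996), and 1.34, 1.67 and 1.65 without control replicates 1, 2 and 3 (0.115, 0.0690 and 0.0885).

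**Figure D1:**
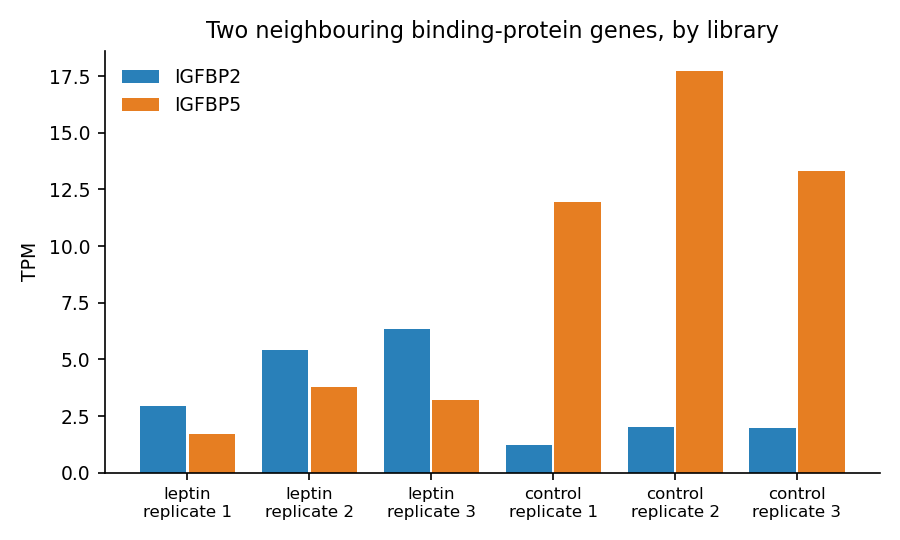
TPM (transcript level, from counts divided by exon length and scaled to the same sum in each library) of IGFBP2 (blue bars) and IGFBP5 (orange bars) in each library. IGFBP2 stood above IGFBP5 in all 3 leptin libraries and below it in all 3 controls.

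Per unit of length, IGFBP2 stood at 2.94, 5.42 and 6.35 TPM and IGFBP5 at 1.73, 3.77 and 3.22 TPM in leptin replicates 1 to 3. Control replicates 1 to 3 had 1.22, 2.03 and 1.99 TPM of IGFBP2 and 11.9, 17.7 and 13.3 TPM of IGFBP5. The ratio of IGFBP2 to IGFBP5 was thus 1.44 to 1.97 with leptin and 0.102 to 0.149 in controls. IGFBP5 was the more abundant transcript of the pair in controls and the less abundant in every leptin library. The direction of this ratio follows in part from the choice of IGFBP5, and it was not tested.

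Other genes of the region were also examined. Besides IGFBP5, 13 tested genes start within 1 Mb of its start, and 1 of these, IGFBP2, passed edgeR's test, which is 7.69%, against 9.81% of all tested genes. The other 12 had log2 fold changes between -1.11 and 0.50, and the smallest edgeR adjusted p among them was 0.0684. The nearest tested gene on the far side of IGFBP5 was ENSG00000287498, which starts 369 kb away, at 2.10 CPM with leptin and 2.36 CPM in controls (log2 fold change -0.16 ± 0.29, edgeR adjusted p = 0.769).

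**Figure D2:**
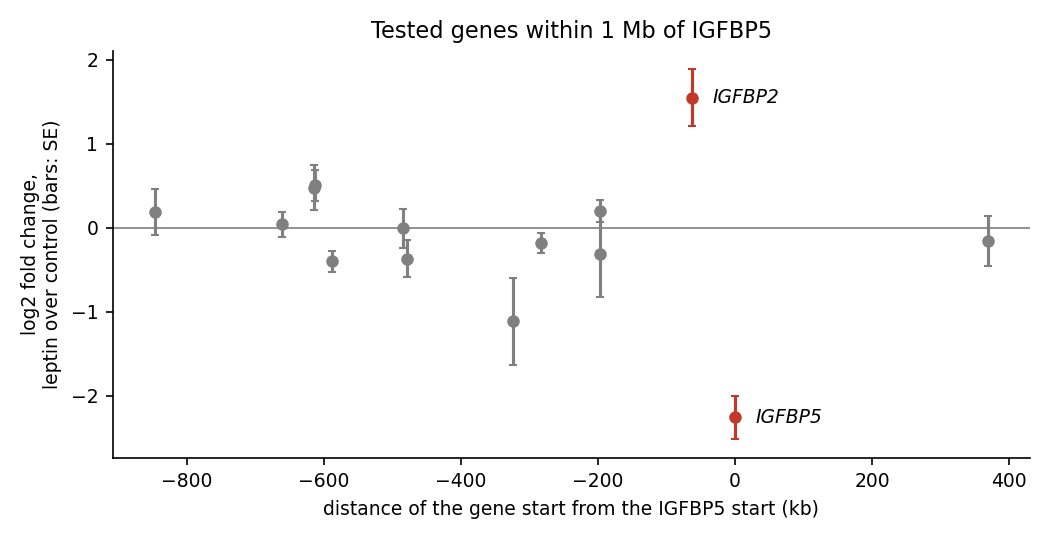
Log2 fold change of leptin over control (points, with SE bars) for tested genes against the distance in kb of each gene start from the IGFBP5 start, within 1 Mb. IGFBP2 at 1.55 and IGFBP5 at -2.26 lie outside the range of the other 12 genes, which runs from -1.11 to 0.50.

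Of the 10 members, 9 passed the filter on low counts. IGF2 passed it through its 3 controls alone, so, like IGFBP5, it is given without a test. Of the other 7, IGFBP2 rose and was the 1 that passed edgeR's test at an adjusted p under 0.05, where 9.81% of all 15685 tested genes did (5.71% higher and 4.09% lower). The groups did not overlap for 3 of the 7, with IGFBP2 and IGFBP7 higher and IGFBP3 lower, against 32.2% of all tested genes (16.0% higher and 16.2% lower). Without leptin replicate 1, 4 of the 7 passed (IGFBP2, IGFBP3, IGFBP7 and IGF2R). That run called 4761 genes in all, against 1538 with all libraries, so calls rose well beyond the members. In each of the other leave-outs 0 of the 7 passed by edgeR, and these runs called 115 to 788 genes in all. The members did not move in a common direction.

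**Figure D3:**
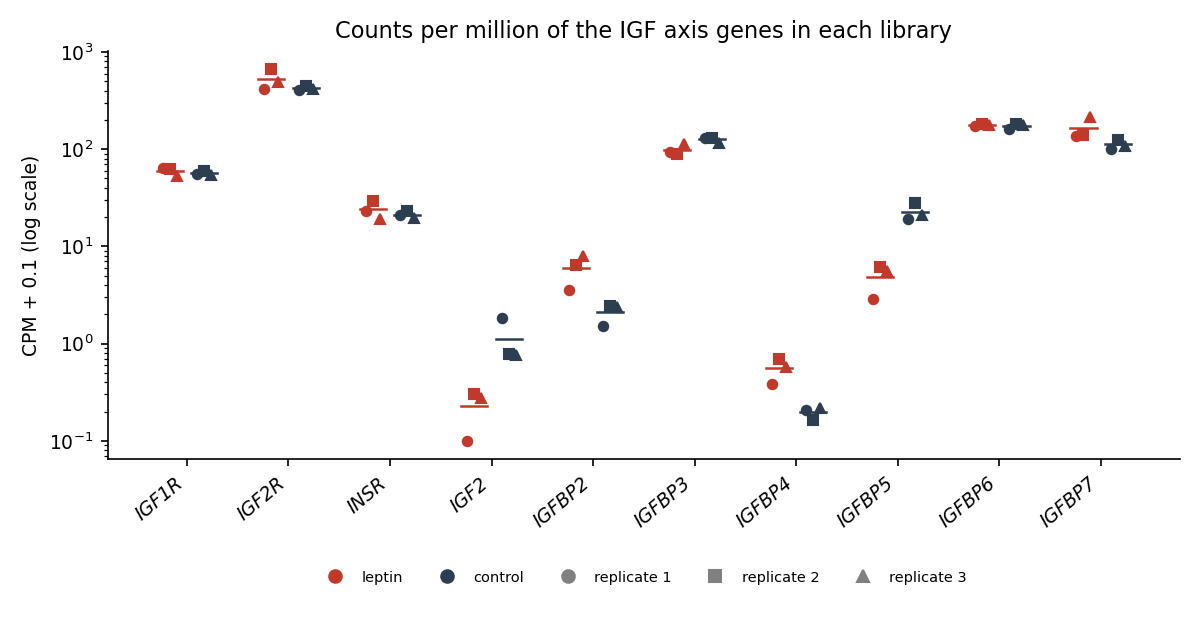
CPM plus 0.1 (log axis) of the 10 members in each library, leptin in red left of control in dark blue, with symbols for replicates and a line at each group mean. CPM is not divided by gene length, so heights compare libraries within a gene. IGFBP5, IGFBP3 and IGF2 are lower, and IGFBP2, IGFBP4 and IGFBP7 higher, in every leptin library than in every control.

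The ligand gene IGF2 was near the limit of detection. It had 0, 3 and 3 counts in leptin replicates 1 to 3, against 33, 11 and 11 in control replicates 1 to 3, which is 0, 0.200 and 0.178 CPM with leptin and 1.74, 0.683 and 0.660 CPM in controls. Control replicate 1 was the highest. For leptin replicate 1, a count of 0 allows up to 3 counts, or 0.173 CPM, and this limit covers counting error only. Every leptin library lay below every control. The fitted log2 fold change was -3.01 ± 0.78 (SE), and -2.43 ± 0.74 without leptin replicate 1. IGF2 lies on chromosome 11 at 2129112 to 2158391, and 44.4% of its exon bases also belong to other genes, INS-IGF2 among them. Read pairs there were not counted, so its level is understated in both groups.

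The other ligand genes had few or no counts. INS, for insulin, had 0 counts in all 6 libraries, which allows up to 0.173 to 0.200 CPM per leptin library and 0.158 to 0.186 CPM per control library. These limits cover the part of INS that was counted, since 37.5% of its exon bases are shared with INS-IGF2. IGF1 had 3, 0 and 0 counts with leptin and 0, 5 and 0 in controls, and 82.5% of its exon bases are shared with another gene, so low counts say little. Counts of the receptor genes and of most binding-protein genes were thus higher than those of the ligand genes, whose levels are understated.

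The receptor genes did not pass. IGF1R, the main signalling receptor, had 63.4, 61.9 and 53.3 CPM in leptin replicates 1 to 3, against 55.3, 59.7 and 53.9 CPM in control replicates 1 to 3. The groups overlapped (log2 fold change 0.08 ± 0.11, edgeR adjusted p = 0.679). Without leptin replicate 1 the IGF1R value was 0.02 ± 0.11 (edgeR adjusted p = 0.895). INSR, the insulin receptor gene, had 23.3, 29.5 and 19.1 CPM with leptin and 21.0, 22.8 and 19.4 CPM in controls. Leptin libraries lay on both sides of the controls (log2 fold change 0.19 ± 0.16, edgeR adjusted p = 0.502). Without leptin replicate 1 the INSR value was 0.19 ± 0.16 (edgeR adjusted p = 0.397). The ratio of IGF1R to INSR per length was 1.63 to 2.17 with leptin and 2.03 to 2.16 in controls.

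IGF2R had 420, 663 and 494 CPM in leptin replicates 1 to 3, against 408, 446 and 419 CPM in control replicates 1 to 3. Leptin replicate 1 lay within the controls, and replicates 2 and 3 above all of them. The log2 fold change was 0.31 ± 0.16 over all libraries (edgeR adjusted p = 0.231), 0.44 ± 0.11 without leptin replicate 1 (edgeR adjusted p = 0.00848) and 0.11 ± 0.11 without leptin replicate 2 (edgeR adjusted p = 0.609).

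Per exon length, IGFBP6 and IGFBP7 had the highest levels of the binding-protein genes. IGFBP6, which prefers IGF2 over IGF1, had 172, 183 and 176 CPM with leptin and 162, 180 and 175 CPM in controls. The groups overlapped (log2 fold change 0.04 ± 0.10, edgeR adjusted p = 0.842). Without leptin replicate 1 the IGFBP6 value was 0.05 ± 0.09 (edgeR adjusted p = 0.713). Its sign turned without control replicate 1, to -0.0050, and after removal of the GC trends, to -0.33 ± 0.10 (edgeR adjusted p = 0.0906). At 64.1% GC its transcript was the most GC-rich of the members.

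IGFBP7, a matrix-associated relative that binds IGFs weakly, had 136, 141 and 212 CPM in leptin replicates 1 to 3, against 101, 126 and 109 CPM in control replicates 1 to 3. All leptin libraries lay above the controls, replicate 3 far above. Its log2 fold change of 0.55 ± 0.17 did not pass edgeR's test (adjusted p = 0.0635). It was 0.65 without leptin replicate 1 (edgeR adjusted p = 0.00481) and 0.30 without leptin replicate 3 (edgeR adjusted p = 0.192). DESeq2 called it (adjusted p = 0.0215). Exons of POLR2B and IGFBP7-AS1, on the opposite strand, cover 18.3% of its exon bases, where read pairs were not counted.

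IGFBP3, the main carrier of IGFs in serum, had 93.9, 89.7 and 112 CPM with leptin and 131, 130 and 116 CPM in controls. The groups did not overlap, but leptin replicate 3 and control replicate 3 lay close together. The log2 fold change was -0.35 ± 0.12 (edgeR adjusted p = 0.0770), and -0.33 ± 0.11 without leptin replicate 1 (edgeR adjusted p = 0.0317). IGFBP1, its neighbour on chromosome 7 and not a member, had 4.44, 0.869 and 1.37 CPM with leptin and 2.85, 1.68 and 2.28 CPM in controls. Leptin replicate 1 was the highest of all libraries and the other leptin libraries the lowest (log2 fold change -0.02 ± 0.51, edgeR adjusted p = 0.988).

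IGFBP4, a secreted inhibitor of IGF action, was too rare to be tested. It had 5, 9 and 8 counts with leptin and 2, 1 and 2 in controls, all leptin libraries above all controls. That is 0.288, 0.601 and 0.475 CPM with leptin and 0.105, 0.0621 and 0.120 CPM in controls. With the control libraries at 1 or 2 counts, no fold change is given.

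**Figure D4:**
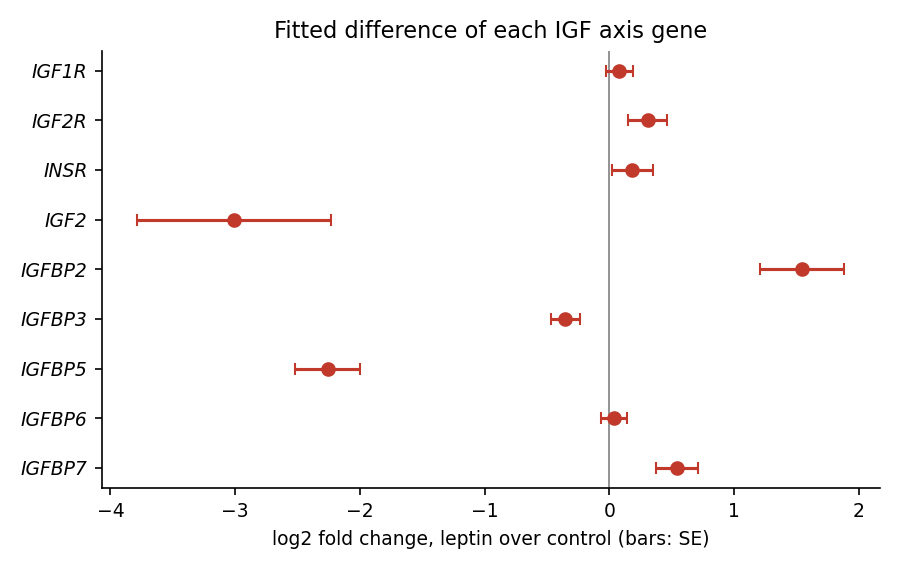
Log2 fold change of leptin over control for the 9 members that passed the low-count filter, with SE bars; IGF2 and IGFBP5 carry no test. IGF2 at -3.01 and IGFBP5 at -2.26 lie lowest and IGFBP2 at 1.55 highest, while the other 6 lie between -0.35 and 0.55.

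Levels of the members were ordered per length. Exon length here is the union over all annotated transcripts, which understates the level of genes with many alternative exons such as IGF2R. In leptin-treated cells the order of mean TPM was IGFBP6 (522), IGFBP7 (333), IGF2R (92.4), IGFBP3 (85.3), IGF1R (16.97), INSR (8.81), IGFBP2 (4.91), IGFBP5 (2.91), IGFBP4 (0.818) and IGF2 (0.0696). Neighbours whose libraries overlapped were IGF2R with IGFBP3 and IGFBP2 with IGFBP5. In controls the order was IGFBP6 (524), IGFBP7 (237), IGFBP3 (113), IGF2R (76.8), IGF1R (16.5), IGFBP5 (14.3), INSR (7.95), IGFBP2 (1.75), IGF2 (0.587) and IGFBP4 (0.178), with overlap for IGF1R and IGFBP5. IGFBP5 thus stood level with IGF1R in controls and below INSR with leptin.

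The 6 binding-protein genes together reached 949 ± 68.7 TPM with leptin and 890 ± 57.1 TPM in controls (SD, n = 3 each). IGFBP6 made up 48.8% to 58.8% of this sum with leptin and 57.6% to 60.4% in controls, and IGFBP7 31.6% to 41.0% with leptin and 25.6% to 28.0% in controls. IGFBP3 held 8.48% to 9.34% with leptin and 11.8% to 14.1% in controls. IGFBP5 held 0.195% to 0.402% with leptin and 1.43% to 1.87% in controls, so even in controls it was a small share of the binding-protein transcripts.

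The genes whose values followed IGFBP5 most closely were sought among 12912 tested protein-coding genes, by the Euclidean distance of their log2 differences from the control mean over 6 libraries. The nearest were TRIML2 (distance 0.615), AMTN (0.773), DCAF12L1 (0.896), IQCF1 (1.24) and NMUR2 (1.29). AMTN, a gene of tooth matrix, had 8.01, 11.5 and 13.6 CPM with leptin and 67.4, 75.4 and 57.9 CPM in controls. Like IGFBP5, it was lowest in leptin replicate 1, a likeness that the choice by distance over these same libraries favours. TRIML2, the nearest, had 0.115, 0.401 and 0.297 CPM in leptin replicates 1 to 3, with a fitted log2 fold change of -2.98. IQCF1 and NMUR2 were under 0.12 CPM in every leptin library. For TRIML2, IQCF1 and NMUR2 the distances thus rest on leptin libraries with very few counts.

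Of 53 other genes of the pathway, 40 were tested, of which 5 rose and 1 fell; these 6 are 15% of the 40, where 9.81% of all tested genes passed. Their median log2 fold change was 0.012, against 0.0057 over all tested genes. The count was 13 without leptin replicate 1 and 4 without leptin replicate 2, runs that called 4761 and 788 genes in all. It was 1 without control replicate 2, and 0 without leptin replicate 3, control replicate 1 or control replicate 3. DESeq2 called 10 and limma-voom 4, where they called 2250 and 1325 genes in all. The pathway lists were chosen with earlier results of these data known, so their shares are descriptions and were not tested.

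Of 9 tested genes for IGFBP proteases, their inhibitors and proprotein processing, 3 rose and 1 fell, or 44.4%, against 9.81% of all tested genes. With limma-voom 3 of the 9 passed. This list was chosen with earlier results of these data known, so its share is a description and was not tested. HTRA1, a secreted serine protease that cuts IGFBPs including IGFBP5, had 55.3, 69.9 and 76.3 CPM with leptin and 37.8, 45.2 and 38.05 CPM in controls. Every leptin library lay above the controls (log2 fold change 0.74 ± 0.14, edgeR adjusted p = 0.0113). CTSD, of the lysosomal protease cathepsin D, had 816, 1107 and 1292 CPM with leptin and 573, 659 and 582 CPM in controls (log2 fold change 0.83 ± 0.16, edgeR adjusted p = 0.0139). Other genes cover 48.0% of the CTSD exon bases.

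STC2, which inhibits the IGFBP protease PAPPA, had 10.8, 30.5 and 27.0 CPM with leptin and 7.64, 7.33 and 6.36 CPM in controls, a rise of 1.67 ± 0.33 on the log2 scale (edgeR adjusted p = 0.0163). Leptin replicate 1 lay much nearer to the controls than the other leptin libraries did. STC1, on the same list, had the opposite sign without passing (log2 fold change -0.94 ± 0.54, edgeR adjusted p = 0.307). It had 9.57, 1.40 and 3.27 CPM with leptin and 10.9, 8.32 and 8.34 CPM in controls, and the groups overlapped. PAPPA itself averaged 1.07 CPM with leptin and 0.772 CPM in controls (log2 fold change 0.47 ± 0.51, edgeR adjusted p = 0.589). ADAM12, a metalloproteinase that cuts IGFBP3 and IGFBP5, had 36.1, 31.8 and 24.4 CPM with leptin and 43.97, 50.7 and 48.6 CPM in controls. It fell by 0.63 on the log2 scale (SE 0.15, edgeR adjusted p = 0.0235).

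Downstream of the receptors, 2 genes rose. SH2B2 makes 14.3% of the tested adaptor genes and INPPL1 9.09% of the tested PI3K-AKT genes, where 9.81% of all tested genes passed. SH2B2, an adaptor recruited by the insulin receptor, had 6.80, 16.6 and 17.04 CPM with leptin and 5.96, 6.15 and 4.38 CPM in controls (log2 fold change 1.29 ± 0.31, edgeR adjusted p = 0.0284). It was the 1 of 7 tested adaptor genes that passed. IRS2, an insulin receptor substrate, averaged 76.3 CPM with leptin and 58.6 CPM in controls without passing (log2 fold change 0.38 ± 0.15, edgeR adjusted p = 0.122). INPPL1, for the lipid phosphatase SHIP2, had 415, 698 and 506 CPM with leptin and 267, 297 and 308 CPM in controls. It was the 1 of 11 genes of the PI3K-AKT list that passed (log2 fold change 0.89 ± 0.17, edgeR adjusted p = 0.0128).

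All 6 calls were lost in some leave-outs. HTRA1 passed in 3 of 6, CTSD, ADAM12 and INPPL1 in 2, and STC2 and SH2B2 in 1. At its highest the edgeR adjusted p reached 0.0935 for HTRA1, 0.106 for CTSD and 0.101 for INPPL1, each without control replicate 1, and 0.0923 for STC2, 0.115 for ADAM12 and 0.136 for SH2B2, each without control replicate 3. With the GC trend removed CTSD (log2 fold change 0.44, edgeR adjusted p = 0.0558) and SH2B2 (0.71, 0.0951) did not pass. With limma-voom STC2 (log2 fold change 1.52, adjusted p = 0.0611) and SH2B2 (1.17, 0.0787) did not.

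The remaining lists had no call by edgeR with all libraries and the low-count filter. Of 5 tested genes that share the IGFBP N-terminal domain, 4 had values below 0. The median log2 fold change of the 5 was -0.42, against 0.0057 over all tested genes. At an unadjusted edgeR p under 0.05 there were 3, DESeq2 called 3 and limma-voom 0. Over all genes DESeq2 called 2250 and limma-voom 1325, where edgeR called 1538. Without leptin replicate 1, a run that called 4761 genes in all, CCN1 (log2 fold change -1.07, edgeR adjusted p = 5.59e-05) and CCN3 (-0.44, 0.0189) passed. No gene of this list passed in the other leave-outs. With no filter on low counts, a run that called 2437 genes in all, CCN1 (-0.71, edgeR adjusted p = 1.52e-05) and CCN2 (-0.51, 0.0439) passed. No share of all genes at an unadjusted p is given, and a common fall of these genes was not tested. Of 3 ligand, carrier and related receptor genes, 3 FOXO factors and 2 IGF2 mRNA-binding proteins tested, edgeR, DESeq2 and limma-voom each called 0, and 0 had an unadjusted edgeR p under 0.05.

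**Figure D5:**
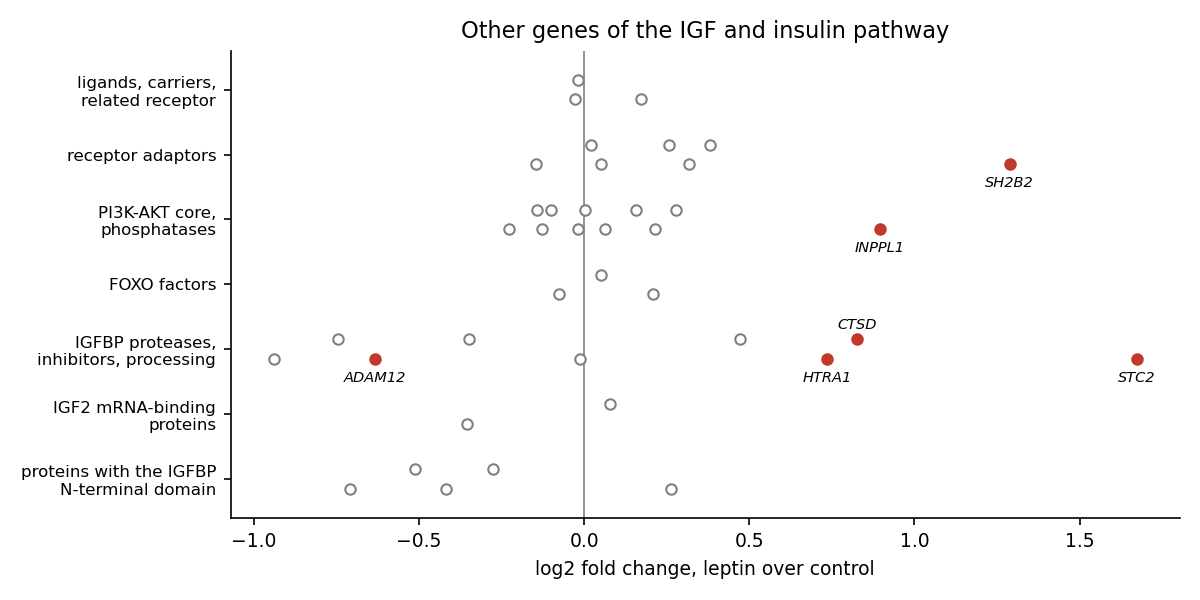
Log2 fold change of leptin over control for the 40 tested pathway genes outside the members, by list, with genes past the edgeR threshold filled and named. STC2 at 1.67 and SH2B2 at 1.29 lie farthest to the right, and ADAM12 at -0.63 is the named gene to the left of 0.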

How the data were processed

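RNA sequencing libraries of OVCAR8 cells, 3 with leptin and 3 with PBS, were analysed. Per the labels, the kit was directional and reads were paired. The deposited values are raw counts of read pairs per gene. Per the file headers, the authors used featureCounts 2.0.1 on GENCODE 44 exons and set no option for strand, multi-mapping or overlap. The build hg38 and the tools HISAT2 2.0.5, featureCounts 1.5.0-p3 and DESeq2 are listed in the submitters' processing notes. Read pairs over exons of several genes were thus left out, on either strand.

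The 10 members and the gene lists were chosen with earlier results of these data known. Named genes are the members, IGF1, INS and IGFBP1, and up to 4 called genes per list. The nearest tested gene on each side of IGFBP5 and the 5 genes nearest to it in pattern are also named. Other genes (PAPPA, STC1, IRS2, CCN1, CCN2, CCN3, marker genes) were named after their values were seen. Symbols matched all 62700 IDs. Counts were tested with edgeR 4.0.16 in R 4.3.3: filterByExpr (minimum count 10, minimum total 15), TMM, robust quasi-likelihood, Benjamini-Hochberg over 15685 genes, threshold 0.05. CPM uses TMM-scaled totals, log2 CPM a prior count of 2, and TPM the exon lengths in the files. Same-group libraries differed beyond sampling noise (chi-square per gene 5.30 to 45.7). GENCODE release 29 gave gene types and GC content (97.2% of tested genes, 100% of members). GC trends were removed as lowess offsets (span 0.3). DESeq2 1.42.0 and limma 3.58.1 were alternatives. The edgeR step was tested on simulated data. Figures used Python 3.11.15 and matplotlib 3.10.9. Columns of other samples numbered 0.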

Additional observations from a re-analysis of the deposited data

How the results depend on the processing

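IGFBP5 kept its direction in every alternative run, with log2 fold changes from -2.46 to -1.99 over the 6 leave-outs. IGFBP2 ranged from 1.27 to 1.82, IGF2 from -3.46 to -2.38, IGF2R from 0.11 to 0.44, IGFBP3 from -0.46 to -0.29, IGFBP7 from 0.30 to 0.65 and IGFBP6 from -0.0050 to 0.071. With the GC trend removed IGFBP6 turned to -0.33. IGF2, given without a test, was -2.90 with the replicate block. IGFBP7 passed with DESeq2 (0.55) and with no filter on low counts (0.55, edgeR adjusted p = 0.000795). Of the 7 members tested, 1 passed (IGFBP2), also with DESeq2 size factors, limma-voom, the replicate block and GC removal; 2 passed (IGFBP2 and IGFBP7) with DESeq2 and with no filter, 0 at an adjusted p under 0.01, and 0 to 4 over the leave-outs. IGF2 is left out of these counts. Same-numbered libraries showed no shared deviation (correlations of -0.0489, 0.0147 and -0.109), and differently numbered ones had -0.0525 to 0.101. Deviations were taken from the mean of each group of 3, so these values cannot decide whether same-numbered libraries belong together. The block gave 1303 changed genes in place of 1538.

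Over all tested genes, leaving off the low-count filter gave 2437 changed genes (1478 higher), GC removal 868 (426 higher), and a threshold of 0.01 gave 274 (148 higher, 126 lower); DESeq2 called 1353 higher. Over the leave-outs they ranged from 115 to 4761 (55 to 2583 higher, 60 to 2178 lower). The 6 pathway genes ranged from 0 to 13 over the leave-outs (0 to 8 higher, 0 to 5 lower). They became 10 with DESeq2 (5 lower), while limma-voom called 3 higher, no filter gave 3 lower, and GC removal gave 3 higher and 2 lower. Leptin replicates differed more than controls (median SD of log2 CPM 0.238 and 0.122). The cause of these shifts was not tested. Depth limits IGF2 and IGFBP4, each at under 10 counts in every library of a group.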
